A study of Mus musculus with 17 samples.

Results

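Gchfr, Rarres1, Abhd1, Psmc3ip, Eme1, Mrgprg, Trim12a and Nnt are 8 genes picked because earlier work on these data saw them as near all-or-none between mouse genotypes in the single-end columns of the deposited table. They were found by gene symbol, and each has 1 row of its own among the 20420 loci with a symbol that no other locus carries. The single-end values chose them, so those values are given as a description. The question was whether the same genotypes were low in the paired-end columns, as an inherited variant carried by a colony would give.

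RNA came from entire mammary glands of female mice that had not been pregnant, all labelled C57Bl/6; the labels used here give no age and no drug treatment. Wild-type (WT) mice carried no engineered change. AROM mice carried tet-op-CYP19A1 (aromatase, the estrogen-making enzyme) and CERM mice tet-op-Esr1 (estrogen receptor alpha), each with MMTV-rtTA, a tetracycline-controlled activator driven by a viral promoter active mainly in mammary epithelium. BRCA mice were Brca1fl11/fl11/MMTV-Cre/p53+/-, with exon 11 of Brca1 removed where MMTV-Cre is active and 1 functional Trp53 allele in the whole body. The labels list 17 libraries: 2 single-end ones per genotype and, paired-end, 1 of WT, 3 of AROM, 2 of BRCA and 3 of CERM.

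The table holds 8 columns of FPKM (fragments scaled to transcript length and to the number of mapped fragments), 1 pooled value per gene for each genotype and layout. There is therefore no spread between replicates, no test and no p-value, and nothing below could be checked against replicates. FPKM carries no counts, so the depth and the counting error behind each value are unknown. In both WT columns many values had repeating decimals, as a mean of 3 numbers would (46.7% of single-end and 43.3% of paired-end loci, against at most 0.00324% in the other columns), although the labels give 2 single-end and 1 paired-end WT library. Per the labels' protocols libraries were sequenced by both methods, so the layouts may share animals and are not shown to be independent. In BRCA the layouts differed by a median of 1.04-fold on the scale of FPKM + 1 over 12024 genes, against 1.22-fold in AROM, 1.11-fold in WT and 1.12-fold in CERM. The paired-end AROM column stood apart. Its FPKM summed to 1.20e+08 over all loci, against 4.255e+06 to 6.24e+06 in the other paired-end columns. Single-end sums were lower, between 8.95e+05 and 1.05e+06. The median of paired-end AROM over the 12024 genes was the lowest of the 8 (7.33 FPKM). Mammary genes were present in all 8 columns, with the casein gene Csn2 between 486 and 6520.2 FPKM. Esr1 lay between 6.48 and 8.49 FPKM in all columns and did not set CERM apart. The Cyp19a1 row is that of the mouse gene and not of the human transgene. It was at 0.0591 and 0.0502 FPKM in AROM and at 0 in every other column, and the source of that signal was not tested. Trp53 was lowest in BRCA in both layouts (12.3 and 12.1 FPKM), while Brca1, whose row is not specific to exon 11, was highest there (3.28 and 3.29 FPKM).

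Inbred strains differ from each other by inherited changes that can silence a gene outright, by losing exons or a promoter, or by a new stop that makes its RNA unstable. A colony built by crossing lines can keep stretches of a donor strain, and mice that inherit such a stretch from both parents then carry only the donor's form of each gene in it, while mice with 1 copy may show a level in between. C57BL/6 is known for such differences between its own sublines, the best known being the loss of exons of Nnt in C57BL/6J. The table holds no reads and no genotypes at these loci, so whether a sequence variant lies behind any value here was not tested.

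Gchfr and Rarres1 were low in BRCA alone, in both layouts. Gchfr encodes the feedback regulator of GTP cyclohydrolase, the first enzyme of tetrahydrobiopterin synthesis, and Rarres1 a retinoic acid-inducible membrane protein related to latexin. They lie on different chromosomes (2 and 3). Because they moved together, the 250 bases before each start site are shown from RefSeq's table for GRCm38.p6, a later build than the mm9 of the files. These are the reference C57BL/6J letters and not those of the mice studied. Capitals mark, on either strand, a promoter element known as the GC box, spelled GGGCGG, and another named by its own letters, CCAAT.
Gchfr, chr2:119167538-119167787, plus strand: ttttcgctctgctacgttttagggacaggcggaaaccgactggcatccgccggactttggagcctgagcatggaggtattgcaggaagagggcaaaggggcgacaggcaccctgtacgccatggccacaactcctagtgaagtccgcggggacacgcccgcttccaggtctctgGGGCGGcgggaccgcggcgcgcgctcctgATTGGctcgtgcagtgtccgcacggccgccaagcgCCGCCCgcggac
Rarres1, chr3:67515524-67515773, minus strand: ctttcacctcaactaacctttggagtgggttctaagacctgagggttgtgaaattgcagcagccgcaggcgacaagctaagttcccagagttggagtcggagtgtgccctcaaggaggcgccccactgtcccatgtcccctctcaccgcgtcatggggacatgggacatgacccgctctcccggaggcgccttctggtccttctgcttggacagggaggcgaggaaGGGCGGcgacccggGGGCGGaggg
Each window held 2 GC boxes, which 32.7% of 32851 promoter windows of the same length contain at least once. Gchfr also held 1 CCAAT box, found in 33.8% of windows. Neither held AGGTCA (a nuclear receptor half-site), the TATA box TATAAA, the E-box CACGTG or the core of an interferon response element.

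**Figure D1:**
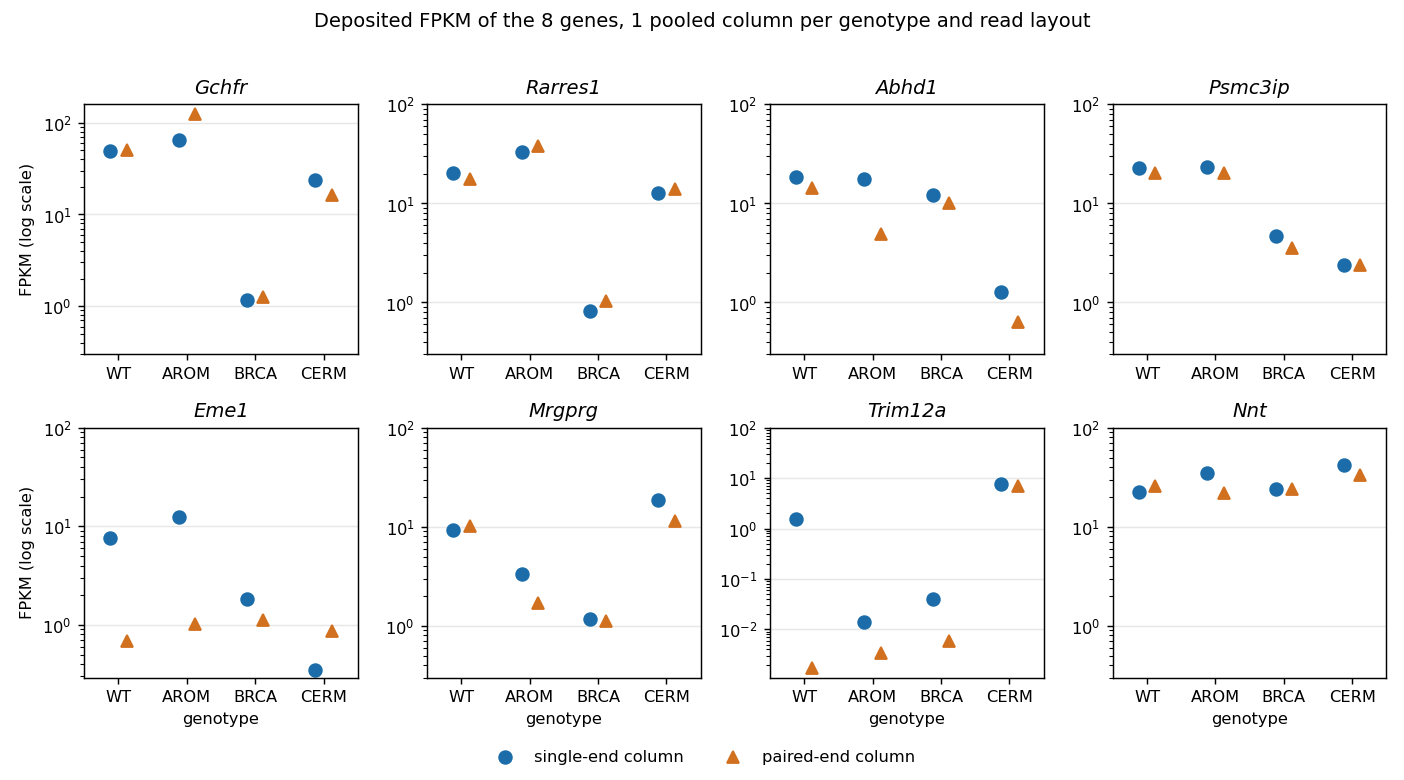
FPKM on a log axis for each of the 8 genes, by genotype, with circles for the single-end and triangles for the paired-end column; each point is 1 pooled value of the authors, and the axis of Trim12a reaches lower than the others. Gchfr and Rarres1 sit near 1 FPKM in BRCA in both layouts, Abhd1 is lowest in CERM, Psmc3ip is low in BRCA and CERM, and Eme1 and Nnt show no such step in the paired-end columns.

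For Gchfr (locus XLOC_015062) the single-end level in WT was 48.8 FPKM, that in AROM 64.9, that in CERM 23.6 and that in BRCA 1.16. Paired-end, WT stood at 50.3 FPKM, AROM at 125, CERM at 16.2 and BRCA at 1.28. BRCA was thus the low column in both, and the other 3 kept the order AROM, WT, CERM. The ratio of WT to BRCA was 42.2 in single-end FPKM and 39.4 in paired-end FPKM. CERM also stood below WT, with a WT to CERM ratio of 2.07 and 3.10.

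For Rarres1 (XLOC_017768) WT stood at 20.2 FPKM, AROM at 33.1, CERM at 12.8 and BRCA at 0.813, single-end. Paired-end, the level was 17.6 FPKM for WT, 37.97 for AROM, 13.9 for CERM and 1.04 for BRCA. The order of the 4 genotypes was that of Gchfr in both layouts, and the WT to BRCA ratio was 24.9 and 17.0. Across the 8 columns, each centred on the mean of its layout, log2(FPKM + 1) of Gchfr and Rarres1 had a Pearson r of 0.98. This describes 8 pooled values that share libraries within a column and rest largely on BRCA.

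The gene whose pattern was most like that of both was Retn, which encodes the adipocyte hormone resistin (r = 0.99 with Gchfr and 0.995 with Rarres1, over 512 genes that varied at least 4-fold). Retn read 96.7 FPKM in BRCA against 858 in WT, single-end, and 87.8 against 616, paired-end. Next were Dmrt2, a doublesex-related transcription factor gene (r = 0.99 with Gchfr), and Timp4, a metalloproteinase inhibitor gene (r = 0.98 with Rarres1). Of the 7 white adipocyte markers all had a row, none was at 0 in any column, and 1, Retn, was 2-fold below WT in BRCA in each layout. Their summed level in the single-end columns was 9104 FPKM in BRCA, 14632 in WT, 11170 in CERM and 19773 in AROM. In the paired-end columns the sums were 8430 FPKM in BRCA, 10793 in WT, 16660 in CERM and 24826 in AROM. BRCA was lowest and AROM highest in both, as for Gchfr and Rarres1, though the drop in BRCA was far smaller in these sums. In paired-end AROM 6 of the 7 markers were 2-fold above WT and none 2-fold below. Gchfr and Rarres1 were also above WT there, with AROM to WT ratios of 2.49 and 2.16. The part of adipocyte content in the values of Gchfr and Rarres1 was not tested. In whole glands fewer cells of a type and less RNA per cell cannot be told apart.

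The pathways around these genes did not show a like drop. Of 13 other tetrahydrobiopterin genes analysed, none was 2-fold apart between BRCA and WT in either layout. Their median log2 difference was -0.30 single-end and -0.12 paired-end, against 0.04 and 0.10 for all genes tested. Gch1, which encodes the enzyme that the Gchfr protein restrains, read 3.21 FPKM in BRCA against 2.06 in WT, single-end, and 3.58 against 1.95, paired-end. Of 18 retinoic acid genes 1 was lower in single-end BRCA, the retinol carrier gene Rbp4 (192 against 409 FPKM), and 1 higher, the retinol receptor gene Stra6 (5.90 against 1.21 FPKM). Over all genes 1.94% were lower there and 2.97% higher. In the paired-end columns 3 of the 18 were higher and none lower (4.36% and 1.29% of all genes). They were Stra6 (5.83 against 1.06 FPKM), the retinoic acid-binding protein gene Crabp1 (19.0 against 6.28 FPKM) and Cyp26b1, a retinoic acid-degrading enzyme gene (2.87 against 0.877 FPKM). The list medians were 0.17 and 0.12, against 0.04 and 0.10 for all genes.

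Psmc3ip was low in both BRCA and CERM and high in WT and AROM, in both layouts. It encodes HOP2, the partner of MND1 in DNA strand exchange during homologous recombination. Its upstream window is shown because it was the one among the 6 available that held AGGTCA, the letters that nuclear receptors bind. Capitals mark AGGTCA and CCAAT on either strand.
Psmc3ip, chr11:101095436-101095685, minus strand: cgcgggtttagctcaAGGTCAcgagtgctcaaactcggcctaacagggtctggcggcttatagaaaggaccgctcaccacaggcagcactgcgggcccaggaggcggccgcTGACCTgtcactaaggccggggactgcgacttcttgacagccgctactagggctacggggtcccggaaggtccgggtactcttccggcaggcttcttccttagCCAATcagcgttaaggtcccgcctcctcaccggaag
AGGTCA occurred in it 2 times, a motif present in 14.0% of the 32851 windows. Of the other members, Eme1 held 1 CACGTG, Mrgprg 1 GGGCGG and Trim12a 2 CCAAT, and TATAAA was in none of the 6. Windows of Abhd1 and Nnt were not used here. A match is only a match of letters.

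For Psmc3ip (XLOC_004822) WT stood at 22.7 FPKM, AROM at 23.1, BRCA at 4.65 and CERM at 2.40, single-end. In the paired-end columns WT read 20.3 FPKM, AROM 20.5, BRCA 3.57 and CERM 2.39. WT and AROM were nearly equal and both stood well above the low pair. The WT to CERM ratio was 9.45 and 8.52, and the WT to BRCA ratio 4.88 and 5.70. The most similar gene was Rprml (r = 0.97), followed by Krtdap, a keratinocyte gene (r = 0.90), and Phlda3, a Trp53 target gene (r = 0.87). Phlda3 read 51.5 FPKM in BRCA and 73.0 in CERM against 152 in WT, single-end. Paired-end, it read 56.1 FPKM in BRCA and 80.8 in CERM against 135 in WT.

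Psmc3ip lies on chromosome 11, as do Brca1, Trp53 and Eme1. Between Psmc3ip and Brca1 in the RefSeq order, 18 genes have a row of their own. None of the 14 analysed single-end or of the 15 analysed paired-end was 2-fold apart between BRCA and WT, with medians of -0.13 and 0.03. Between CERM and WT 1 of them, the kinase gene Wnk4, was 2-fold higher in each layout. The genes on that side of Psmc3ip were thus not lower by 2-fold in BRCA or CERM. Mlx, which overlaps Psmc3ip in the RefSeq order, may share reads with it.

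Eme1 did not keep its pattern. It encodes the partner of MUS81 in an endonuclease that cuts branched DNA in recombination and at stalled forks. For Eme1 (XLOC_004688) WT stood at 7.63 FPKM, AROM at 12.4, BRCA at 1.81 and CERM at 0.349, single-end. Paired-end, WT stood at 0.694 FPKM, AROM at 1.02, BRCA at 1.13 and CERM at 0.872. The spread from highest to lowest genotype was 9.92-fold on the FPKM + 1 scale single-end and 1.26-fold paired-end. Here the WT and AROM values moved between layouts, by a ratio of 10.99 and 12.2, while BRCA moved by 1.61 and CERM the other way, by 0.401. RefSeq's table places Lrrc59 and Mrpl27 across parts of Eme1, and both were far higher than Eme1, with Mrpl27 between 39.3 and 72.6 FPKM and Lrrc59 between 39.8 and 65.9. Whether reads of these genes reached Eme1 was not tested. The most similar gene over the 8 columns was Dgcr8, a microRNA processing gene (r = 0.96), whose spread was also 6.87-fold single-end and 1.54-fold paired-end. Map3k15, a kinase gene (r = 0.82), spread 14.9-fold single-end and 4.06-fold paired-end.

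Most other recombination genes analysed were within 2-fold of WT. Of 12 analysed single-end, 1 was 2-fold higher in BRCA, the engineered Brca1, and none was lower. Of 10 analysed paired-end none passed. That set lacks Brca1 and some other list genes, which reached 1 FPKM in BRCA alone and so missed the filter. The list medians between BRCA and WT were 0.14 and 0.24, against 0.04 and 0.10 for all genes. Between CERM and WT none passed in either layout, with medians of -0.07 and -0.003 against -0.05 and 0.04 for all genes. Mnd1, the partner of Psmc3ip, lay between 4.98 and 7.18 FPKM in the 8 columns, and Mus81, the partner of Eme1, between 6.29 and 10.97 FPKM.

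Abhd1 was lowest in CERM in both layouts. The gene belongs to the alpha/beta hydrolase fold family, and RefSeq's table for the C57BL/6J reference lists it as a transcribed pseudogene. For Abhd1 (XLOC_020488) WT stood at 18.5 FPKM, AROM at 17.8, BRCA at 12.3 and CERM at 1.28, single-end. Paired-end, WT stood at 14.3 FPKM, AROM at 4.94, BRCA at 10.2 and CERM at 0.636. CERM was the low column each time, but AROM changed place: level with WT single-end, it stood between BRCA and CERM paired-end. The WT to CERM ratio was 14.5 and 22.5. Preb, which overlaps Abhd1 in the RefSeq order, lay between 10.7 and 12.2 FPKM in all 8 columns. The sources used here do not give how strand was treated, so reads of the overlapping pair cannot be told apart. None of 12 other Abhd family genes analysed was 2-fold apart between CERM and WT in either layout (medians -0.14 and 0.06). Most like Abhd1 were Wfdc12 (r = 0.90), Alox12e, an epidermal lipoxygenase gene (r = 0.86), and Pcsk6, a proprotein convertase gene (r = 0.84).

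Trim12a was present in CERM and near 0 in AROM and BRCA. It encodes a tripartite motif protein of the family that includes the antiviral factor TRIM5, in a cluster of near-identical copies on chromosome 7 that may share reads, so its value is uncertain. For Trim12a (XLOC_025682) CERM stood at 7.63 FPKM, WT at 1.58, AROM at 0.0139 and BRCA at 0.0404, single-end. Paired-end, CERM stood at 6.90 FPKM, WT at 0.00168, AROM at 0.00340 and BRCA at 0.00590. CERM stood alone in both, and WT was intermediate in the single-end column and near 0 in the paired-end one. Since a column pools libraries, an intermediate value does not say whether all of them or some carried the signal.

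The genes beside Trim12a in the cluster differed in which genotype was highest. Trim34a, the nearest measured gene on one side, read 6.16 FPKM in CERM against 2.67 in WT, single-end, and 5.45 against 1.67, paired-end. Only the paired-end difference passed 2-fold on the FPKM + 1 scale, and it was the 1 of 4 analysed Trim genes to do so. Trim6, the next measured gene on that side, was lowest in CERM, at 0.352 FPKM against 0.461 in WT, single-end, and 0.277 against 0.404, paired-end. These Trim6 values are below 1 FPKM, and Trim6 missed the filter in both layouts. On the other side Trim30a was highest in BRCA, at 11.3 and 11.5 FPKM against 4.71 and 3.28 in WT. In CERM Trim30a was also above WT, at 8.09 and 7.43 FPKM, by less than 2-fold on the FPKM + 1 scale. Trim30d, named after its values were seen, was at 3.21 FPKM in CERM and at most 0.605 in the other single-end columns, and at 2.41 and at most 0.559 in the paired-end ones. In WT Trim30d read 0.605 FPKM single-end and 0.0521 paired-end. The 3 genes most like Trim12a were the hair keratin-associated protein genes Krtap8-1, Krtap11-1 and Krtap7-1 (r = 0.97, 0.96 and 0.96). Krtap8-1 read 17.5 FPKM in CERM against 0.629 in WT, single-end, and 10.98 against 0.570, paired-end.

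Mrgprg was low in AROM and BRCA in both layouts. It encodes an orphan receptor of the Mas-related family, whose better known members sense itch and pain signals in nerves and activate mast cells. For Mrgprg (XLOC_026016) WT stood at 9.31 FPKM, CERM at 18.8, AROM at 3.35 and BRCA at 1.17, single-end. The paired-end level of WT was 10.1 FPKM, that of CERM 11.4, that of AROM 1.68 and that of BRCA 1.13. The low pair and the high pair were the same in both, with AROM nearer to BRCA in the paired-end columns. The WT to BRCA ratio was 7.97 and 8.94, and the WT to AROM ratio 2.78 and 6.01. Other Mas-related receptor genes were scarcely detected: of 16, 2 passed the filter single-end and 1 paired-end, and none was 2-fold apart from WT in any genotype.

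The genes most like Mrgprg were 2 of the milk-making cell, Lalba, the alpha-lactalbumin gene (r = 0.99), and Btn1a1, the butyrophilin gene of milk fat (r = 0.98), and then Upk3a, a uroplakin gene (r = 0.93). Lalba read 113 FPKM for WT, 227 for CERM, 68.2 for AROM and 46.3 for BRCA, single-end. All 5 milk markers had a row and none was at 0. Their sums were 11234 FPKM for WT, 9040 for CERM, 5836 for BRCA and 1626 for AROM, single-end, and 8773, 5433, 5473 and 1085, paired-end. AROM was lowest in that sum and BRCA lowest in Mrgprg, and the part of alveolar cells in the Mrgprg values was not tested.

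Nnt went against the description all-or-none. It encodes nicotinamide nucleotide transhydrogenase, the enzyme of the inner mitochondrial membrane that makes NADPH from NADH. For Nnt (XLOC_007499) WT stood at 22.4 FPKM, AROM at 35.3, BRCA at 24.1 and CERM at 42.1, single-end. Paired-end, WT stood at 26.0 FPKM, AROM at 22.1, BRCA at 24.0 and CERM at 33.7. All 8 columns held a clear signal, and the spread between genotypes was 1.84-fold and 1.504-fold on the FPKM + 1 scale, with CERM highest in both. One value per locus does not show which exons were read, so these columns do not bear on the exon loss of C57BL/6J. Among the genes most like Nnt were Actn3, the fast muscle actinin gene (r = 0.95), and Foxo3 (r = 0.91, but listed at 0 in 2 columns).

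Of the 7 skeletal muscle markers 6 had a row and none was at 0. Their single-end sums were 10777 FPKM in WT, 30517 in AROM, 13872 in BRCA and 32941 in CERM, the order of Nnt. The paired-end sums were 17966, 19972, 13654 and 25246 FPKM, with CERM highest as for Nnt but AROM above WT. The part of muscle in the Nnt values was not tested. Of 15 other mitochondrial NADPH and peroxide genes none was 2-fold apart between CERM and WT in either layout (medians -0.12 and -0.22). In BRCA 1, the citrate carrier gene Slc25a1, was 2-fold lower in both layouts (166 against 397 FPKM single-end), and the folate enzyme gene Mthfd2 was higher paired-end (4.63 against 1.77 FPKM).

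The 8 genes were then set against all genes by the widest gap between neighbouring genotypes when the 4 columns of a layout are sorted on log2(FPKM + 1). A gap of at least 2, which is 4-fold, was called a step. All 8 passed the filter of 1 FPKM in at least 1 column of each layout, as did 12024 genes in all. In the single-end columns, which chose them, 4 of the 8 had a step, against 0.757% of all genes, a share from which nothing can be read. In the paired-end columns Gchfr, Rarres1, Psmc3ip and Mrgprg had one, as had 0.973% of all genes. Trim12a had one too, but it reached 1 FPKM there in CERM alone. It thus had to differ to be included, and its step is given as a description only. The layouts may share animals, so the paired-end steps of the members are not independent of the choice either. Among all genes with a single-end step, 68.1% also had a paired-end one. The same step, with the same low genotypes in both layouts, was held by 3 of the 8, Gchfr, Rarres1 and Psmc3ip, and by 41 genes (0.341%) in all. It requires the single-end step, and single-end values chose the members, so nothing can be read from this share either. Those 41 were 45.1% of the 91 genes with a single-end step and 35% of the 117 with a paired-end one. Just outside were Abhd1, with a gap of 2.54 single-end and 1.86 paired-end, Trim12a with 1.74 and 2.97, and Mrgprg with 1.25 and 2.05. With a step of 2-fold these 3 joined, giving 6 of 8, a step that 2.18% of all genes had. That count rests in the same way on the single-end values that chose the genes. It includes Trim12a, which was again included through CERM alone.

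**Figure D2:**
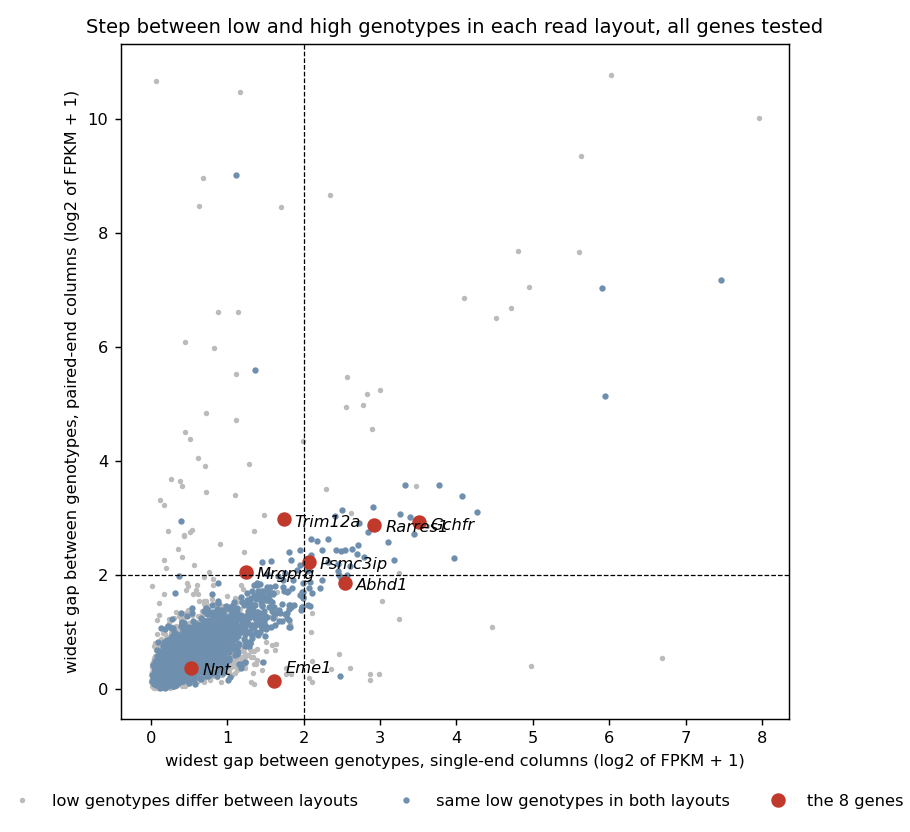
Widest gap between neighbouring genotypes on the scale log2(FPKM + 1), single-end on the horizontal and paired-end on the vertical axis, for 12024 genes; dashed lines mark the 4-fold step of 2 units, blue points are genes with the same low genotypes in both layouts, and the 8 genes are in red. Gchfr, Rarres1 and Psmc3ip lie beyond both lines, Abhd1, Trim12a and Mrgprg beyond 1 of them, Eme1 lies near 0 on the paired-end axis, and Nnt lies among the bulk of genes.

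The lowest genotype was the same in both layouts for 5 of the 8 genes (all but Eme1, Trim12a and Nnt) and for 57.3% of all genes. The highest was the same for 7 of the 8 (all but Eme1) and for 65.8% of all genes. Both of these counts use the single-end columns that chose the genes. For the difference between any 2 genotypes, 7 of the 8 passed the paired-end filter of 1 FPKM in at least 2 of 4 columns, and Trim12a did not. Of those 7, 5 (Gchfr, Rarres1, Abhd1, Psmc3ip and Mrgprg) were at least 2-fold apart between their highest and lowest paired-end genotypes, against 19.8% of 11535 genes. Against paired-end WT, 4 were lower in BRCA (1.29% of all genes), 3 in CERM (0.824%) and 2 in AROM (2.83%). Higher than WT were 2 in AROM, Gchfr and Rarres1 (2.04%), and none in BRCA (4.36%) or CERM (3.51%). Since the layouts may share animals, these paired-end counts are not independent of the single-end choice and are given as a description. In the single-end columns, which chose the genes, 7 of 8 were 2-fold apart between highest and lowest (13.2% of all genes). There 6 were lower than WT in BRCA (1.94%), 4 in CERM (0.999%) and 2 in AROM (1.7%), and 1 was higher in CERM (3.34%). Comparisons within a layout share the WT column.

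Neighbouring genes varied about as much as genes in general. The 2 nearest measured genes on each side of each member, by the RefSeq order, made 32 genes, of which 21 passed the filter in each layout. In each layout 4 of the 21 were at least 2-fold apart between their highest and lowest genotypes, which over all genes was the case for 13.2% single-end and 19.8% paired-end. Among them were Lxn beside Rarres1, and Trim34a and Trim30a beside Trim12a. The median spread of the 21 was 1.33-fold single-end and 1.49-fold paired-end, against 1.37 and 1.505 for all genes. Lxn, the latexin gene and a relative of Rarres1, was not low in BRCA, with 20.2 FPKM there against 16.7 in WT, single-end, and 18.9 against 12.5, paired-end.

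**Figure D3:**
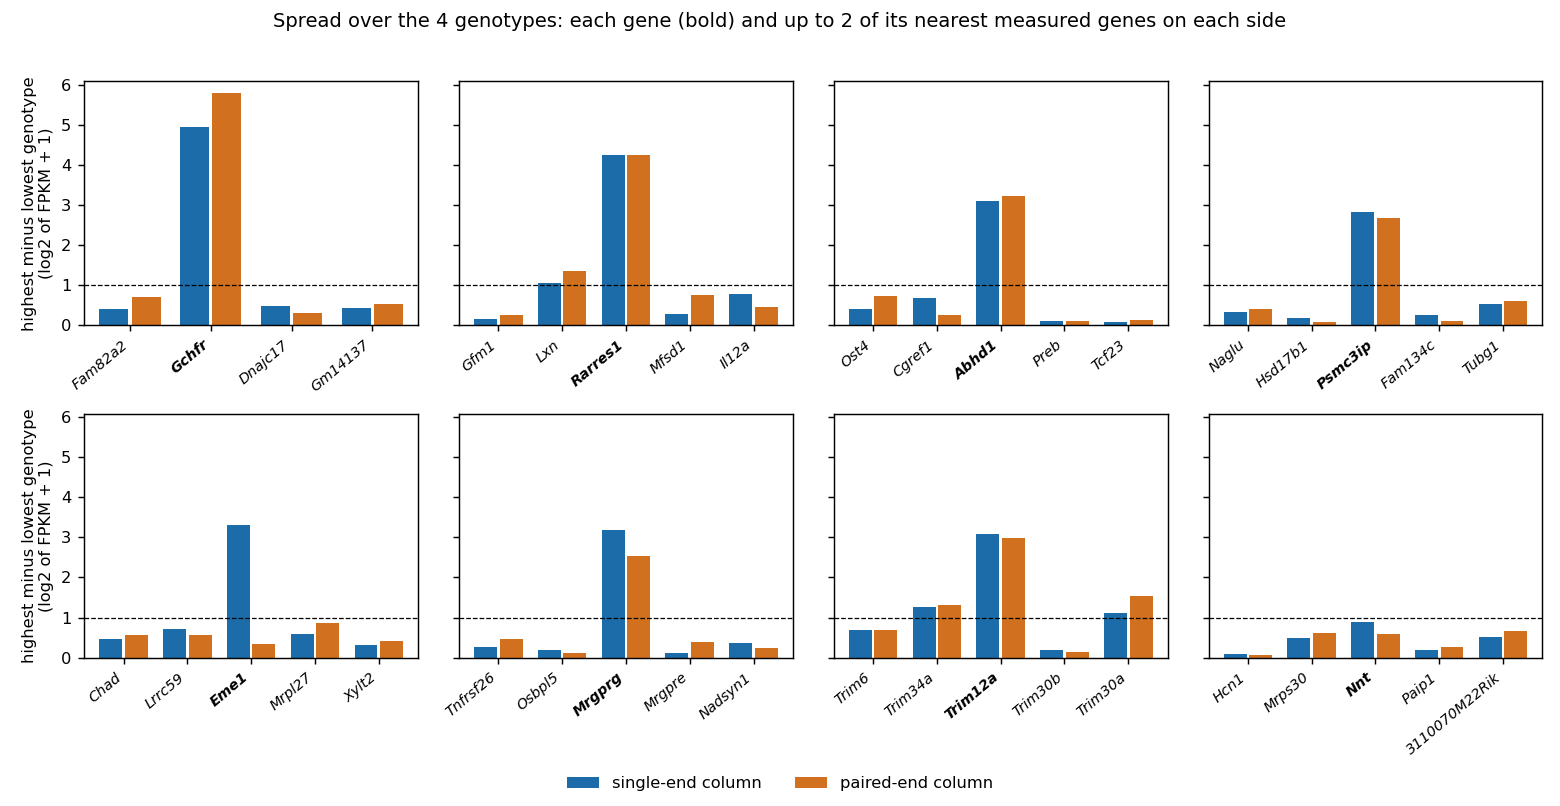
Difference between the highest and the lowest of 4 genotypes on the scale log2(FPKM + 1) for each of the 8 genes (bold) and up to 2 of its nearest measured genes on each side, with blue bars for single-end and orange bars for paired-end columns; the dashed line marks 2-fold. Each member stands above its neighbours except Eme1 and Nnt in the paired-end columns, and among the neighbours drawn Lxn, Trim34a and Trim30a pass the line. The members, unlike the neighbours, were chosen on single-end values, so nothing can be read from their higher single-end bars. The layouts may share animals, so the paired-end bars are not independent of that choice.

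Of the 41 genes with the same step in both layouts, 18 were high in BRCA alone, 12 high in CERM alone, 6 low in BRCA alone, 2 low in AROM alone, 2 low in BRCA and CERM, and 1 high in WT alone. Gchfr and Rarres1 shared the set low in BRCA with Retn and 3 loci that have only a predicted or clone-based symbol. Psmc3ip shared the set low in BRCA and CERM with H2-Ea-ps alone. H2-Ea-ps is the MHC class II Ea gene, which C57BL/6 mice are known not to express because its promoter is lost. For it WT stood at 58.4 FPKM, AROM at 28.1, CERM at 3.68 and BRCA at 0.113, single-end. Paired-end, WT stood at 48.1 FPKM, AROM at 13.2, CERM at 1.60 and BRCA at 0.0673, in the same order. The labels give C57Bl/6 for all genotypes, so the clear signal in WT and AROM stands at odds with that label. The strain background of the mice was not tested.

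The widest of the 41 steps belonged to agouti (symbol a), the coat colour gene at which C57BL/6 mice are known to carry a loss allele. Agouti was at 227 FPKM in BRCA and at most 0.288 in the other single-end columns, and at 258 in BRCA and at most 0.780 in the other paired-end ones. The labels give C57Bl/6 for BRCA as well. The rest of the order leaves out symbols with Gm, Rik, Mir or Snor. BC018473 came next, at 64.6 and 37.2 FPKM in CERM and at most 0.0919 elsewhere. Then came Marco, a macrophage scavenger receptor gene (14.5 and 13.8 FPKM in BRCA), and the chemokine gene Ccl8 (351 and 294 FPKM in BRCA). Pigr, the immunoglobulin A transporter gene, was low in AROM, and Krtap8-1 was high in CERM. Ctsr, a cathepsin gene, and Gbp1, an interferon-inducible GTPase gene, were high in BRCA.

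**Figure D4:**
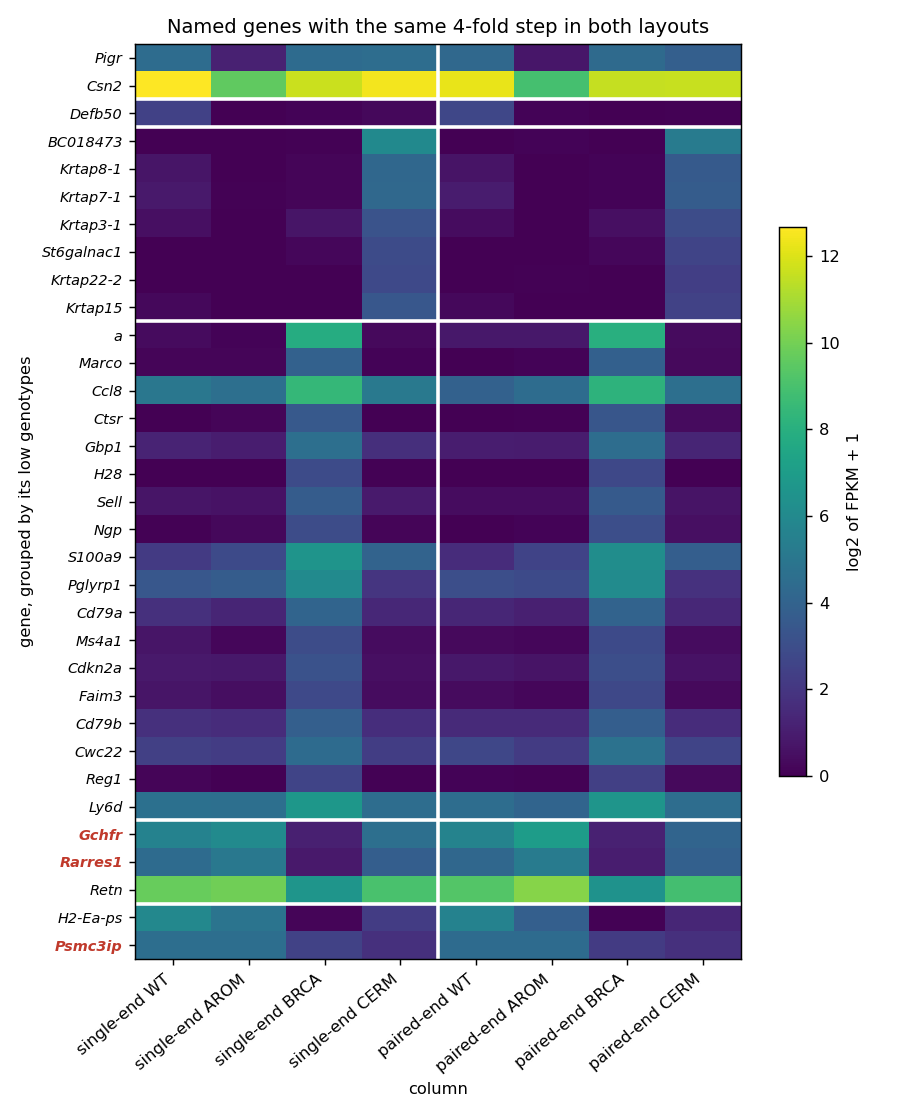
Values are log2 of FPKM + 1 in the 4 single-end and 4 paired-end columns. They cover 33 of the 41 genes with the same 4-fold step in both layouts, leaving out symbols with Gm, Rik, Mir or Snor. The genes are grouped by their low genotypes, with the 3 members among them in red. Gchfr, Rarres1 and Retn are darkest in the BRCA column of each layout, and Psmc3ip and H2-Ea-ps in its BRCA and CERM columns.

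Further genes known to vary among C57BL/6 lines or between C57BL/6 and other strains were looked up by a list of 15. Of these 9 passed the filter single-end and 8 paired-end. Against WT, H2-Ea-ps was lower in AROM, BRCA and CERM in both layouts. Glo1, the glyoxalase gene that varies in copy number, was lower in CERM in both (48.7 against 99.4 FPKM and 44.8 against 98.3). It was also below WT, by less than 2-fold, in BRCA (58.8 and 51.2 FPKM) and in AROM (93.1 and 60.9 FPKM). Ifi202b, an interferon-inducible gene, was lower in CERM in the single-end columns alone. Dock2, a leukocyte gene, was higher in BRCA in both layouts and in CERM paired-end. The 6 macrophage markers with a row summed to 536 FPKM in BRCA, 333 in CERM and 307 in WT, single-end. Paired-end, in the same order, they summed to 530, 469 and 235 FPKM. The 6 lymphocyte markers with a row summed, in that order, to 54.7, 18.2 and 18.1 FPKM single-end and 52.8, 14.4 and 14.3 paired-end. The part of leukocyte content in the Dock2 values was not tested. Mx2 was higher in BRCA single-end (4.21 against 0.608 FPKM). Paired-end, Mx2 read 3.999 against 0.553 FPKM but missed the filter, since it reached 1 FPKM in BRCA alone. The list medians between BRCA and WT were 0.18 and 0.30, against 0.04 and 0.10 for all genes. Wdfy1, Entpd4 and Ide, which vary among C57BL/6 lines, did not pass 2-fold between any genotype and WT, and Entpd4 lay between 23.2 and 27.8 FPKM in all 8 columns.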

How the data were processed

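The deposited values are FPKM for 30843 loci, 1 pooled column per genotype and read layout. The submitters' processing notes name mm9 and the tools TopHat, Cufflinks, FastQC and Trim Galore; no tool version, and no account of how libraries were combined, is given in the sources used here. Loci without a name (8119), with several symbols (585) or sharing a symbol (1719) were left out. Values were compared as deposited on log2(FPKM + 1), which understates ratios of low genes; ratios of FPKM are named as such. Median FPKM of the 12024 genes was 7.33 to 9.43 over the columns. RefSeq names matched 20246 of 20420 symbols and served for neighbours and promoter windows (6 of 8 members). Members and gene lists were chosen with earlier results of these data known. Besides the members, genes were named as neighbours, as the 3 most alike, as list members past 2-fold, or among the 10 widest steps in both layouts. Symbols with Gm, Rik, Mir or Snor were left out of the most alike and of the 10 widest steps. A few genes that these rules name are not reported here. The step rule was tested on simulated data. Python 3.11.15, numpy 2.4.6 and pandas 2.3.3 were used.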

Additional observations from a re-analysis of the deposited data

How the results depend on the processing

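The count of members at least 2-fold apart in the paired-end columns was 5, and stayed 5 or 6 with a pseudocount of 0.1, median-ratio or quantile scaling, no filter, or 4-fold in place of 2-fold. The count of members with the same low genotypes in both layouts was 3, or 4 with a pseudocount of 0.1 or either scaling (Abhd1 joined). It was 6 with a step of 2-fold, 0 with a step of 8-fold, since the smaller gap of Gchfr is 2.92, and 5 without the WT columns, when Mrgprg and Trim12a joined and Abhd1 did not. The number of all genes with the same step was 41, and 139 with a pseudocount of 0.1, 262 with a step of 2-fold and 9 with a step of 8-fold; it was 49 without the WT columns. Under both scalings the members' low genotypes stayed as given, except for Eme1 in the paired-end columns, where all 4 values lie near 1 FPKM; the size factors ranged from -0.26 (paired-end AROM) to 0.12 (single-end BRCA) on the log2 scale, and the paired-end gap of Mrgprg fell to 1.96 and 1.86. With a pseudocount of 0.1 the low single-end genotypes of Eme1 became CERM alone and those of Trim12a AROM and BRCA. No paired analysis was possible because the table has pooled columns and no column for each library; leaving out single replicates was not run for the same reason. Depth is unknown, so values under 1 FPKM, such as those of Trim12a, carry an unknown counting error.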
